A study of Mus musculus with 41 samples.

Results

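The bone matrix gene cluster of mouse chromosome 5 was described through the peaks of 8 chromatin immunoprecipitation (ChIP-seq) lists. It holds 5 genes in the order Dspp, Dmp1, Ibsp, Mepe and Spp1. All peaks whose centre lay in chr5:104550000-104920000 (build mm9, 370 kb) were taken, which gave 55 of the 155773 peaks in the lists. The study mapped Runx2 and other regulators in skeletal cells and in a fibroblast line given Runx2. Its 41 samples comprised 23 ATAC-seq libraries of open chromatin, 7 input libraries and 1 IgG control, which were not analysed here, and 10 ChIP libraries, which stand behind the lists.

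Tagged Runx2 (FLAG) came from C57BL/6 mice with the Runx2-BioFL/+ knock-in at postnatal day 1, as 2 libraries and 1 list for rib chondrocytes and as many for calvarial osteoblasts. Foxa2 was precipitated from rib chondrocytes, and Jun from calvarial osteoblasts, of wild-type C57BL/6 mice at postnatal day 1, with 1 library each. The cells were digested from dissected rib and from frontal and parietal bone, and the labels name no sort for them. The other 4 lists came from FLAG precipitations of 3T3 cells, a mouse fibroblast line, that overexpressed Runx2BioFL or green fluorescent protein (GFP). Day 0 and day 3 of culture in osteogenic medium gave 1 library per protein. The labels give BMP-2 (100 ng/ml) for the day 3 libraries and none for those of day 0. Differences between days and those due to BMP-2 therefore cannot be told apart. The GFP cells served as the control without tagged Runx2. Chondrocytes came from rib and osteoblasts from calvaria, so differences between cell types and between skeletal sites cannot be told apart.

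The lists gave positions alone, with no score or read depth. Each group had 1 list, so no value has an error between replicates and no test was made. For 1 pair of 3T3 lists the labels were crossed: the sample description of Runx2 day 0 cites the list called GFP day 3, and that of GFP day 3 cites the one called Runx2 day 0. Both were used under their own names, and values after an exchange are given where they differ.

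The 5 genes encode the small integrin-binding ligand, N-linked glycoproteins, acidic secreted proteins of mineralized tissue that bind integrins and calcium phosphate. Dspp encodes the main non-collagenous proteins of dentin. Dmp1 is a product of osteocytes and odontoblasts that acts in mineralization and phosphate balance, Ibsp (bone sialoprotein) promotes nucleation of mineral, Mepe is an osteocyte product, and Spp1 (osteopontin) restrains the growth of mineral crystals and serves in cell attachment. Runx2 is the transcription factor required for osteoblast formation and also acts in hypertrophic chondrocytes. Foxa2 is a forkhead factor of hypertrophic chondrocytes, and Jun is a subunit of the AP-1 factor. In the RefSeq gene order the protein-coding neighbours were Sparcl1 before Dspp and Pkd2 after Spp1. Only the position of Spp1 was stated for mm9 (about chr5:104864100-104870100), so distances are given from its stated start, with upstream meaning toward Mepe, and no peak was assigned to the other 4 genes.

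Because a Runx2 site lay at the stated start of Spp1, the 250 bases before the annotated start are shown. They come from RefSeq (GRCm38.p6, plus strand, chr5:104434861-104435110), a build whose numbering differs from that of the peaks. Capitals mark the RUNX core TGTGGT or its reverse complement ACCACA.
Spp1 promoter: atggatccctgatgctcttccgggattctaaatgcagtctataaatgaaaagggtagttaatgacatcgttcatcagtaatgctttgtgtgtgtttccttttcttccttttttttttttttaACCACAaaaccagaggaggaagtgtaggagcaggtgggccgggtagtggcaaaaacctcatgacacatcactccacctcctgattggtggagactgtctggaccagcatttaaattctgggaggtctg
The match began 128 bases before the start. The table held 6 such windows for 4 of the 5 genes, 2 each for Dmp1 and Spp1, and none was matched for Dspp. Matches also stood in 1 window of Dmp1, 164 bases before its start, and in that of Mepe, 118 and 80 bases before its start, shown here with 12 bases on each side for comparison with Spp1.
Dmp1 match: agtcatttgagaACCACAagagctttttag
Mepe match, far: tagcagctttccACCACAaaacatttttag
Mepe match, near: taccatacccccTGTGGTcatctgtgggca
The Ibsp window and the other windows of Dmp1 and Spp1 held no match. On either strand, 14.0% of all 32851 promoter windows and 15.9% of 27025 genes held this core, so a match is not particular to these genes. The 6 windows are too few to compare with these shares. The AP-1 letters TGANTCA (6.75% of all windows) and the FOX letters TGTTTAC (3.17%) were in none of the 6. A match describes these letters and is not a measured site.

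Runx2 peaks were frequent in the cluster in both primary cell types. The osteoblast Runx2 list had 9 peaks there, the chondrocyte Runx2 list 8 and the chondrocyte Foxa2 list 9, while osteoblast Jun had 4. In 3T3 cells the list of Runx2 day 3 had 13 and the one named for Runx2 day 0 had 10. The list of GFP day 0 had no peak in the cluster, and the one named for GFP day 3 had 2, which overlapped each other. With the crossed lists exchanged, Runx2 day 0 had 2 peaks and GFP day 3 had 10. The list of GFP day 0 was short (2475 peaks, 0.346 per 370 kb on average), and 19.6% of windows of this length held any peak of it.

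The genome was divided into 7144 consecutive windows of 370 kb as a background. For osteoblast Runx2, 1.83% of windows held at least 9 peaks (mean 1.43 per window). For chondrocyte Foxa2, 3.35% held at least 9 (mean 2.06), and for chondrocyte Runx2 6.51% held at least 8 (mean 2.15). The share of such windows was larger for the other lists: 16.3% held at least as many peaks as the cluster for the list named for Runx2 day 0, 21.3% for Runx2 day 3, 22.5% for Jun and 38.3% for the list named for GFP day 3. The windows on either side give a local comparison. Osteoblast Runx2 had 2 peaks in the 370 kb before the cluster and 0 in the 370 kb after it, and Foxa2 had 4 and 0. Chondrocyte Runx2 had 11 and 2, and Runx2 day 3 in 3T3 cells had 37 and 2. The cluster held more osteoblast Runx2 and Foxa2 peaks than either neighbour in the full lists. In the first 50% of each file, by line order, 1 of the 9 osteoblast Runx2 peaks and 5 of the 9 Foxa2 peaks of the cluster remained, and the part of file position in these counts was not tested. In contrast, the window on the side of Sparcl1 held more chondrocyte Runx2, Jun and 3T3 Runx2 peaks than the cluster. The same held for the list named for GFP day 3.

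**Figure D1:**
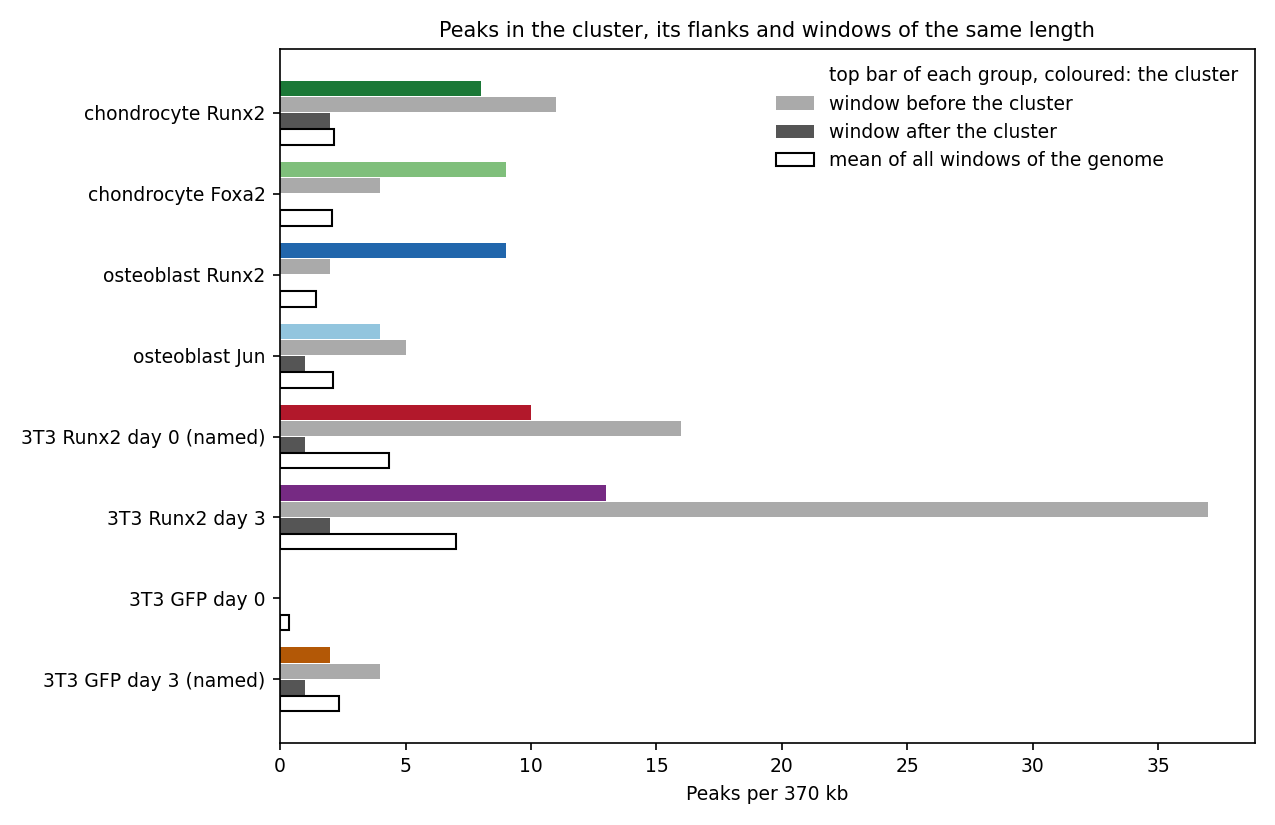
Peaks per 370 kb (horizontal axis) for each list: the cluster (top coloured bar), the windows before and after it (grey) and the mean of all windows of the genome (white), with no error bars because each group has 1 list. Osteoblast Runx2 and chondrocyte Foxa2 have 9 peaks each in the cluster against 2 and 4 in the window before it and 0 in the window after it; "named" marks the lists with crossed labels.

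The 55 peaks merged into 29 sites. Of these, 16 were held by 1 list, 5 by 2 lists, 7 by 3 lists and 1 by 4 lists, and 22 held at least 1 Runx2 list. Most sites lay around Spp1 and upstream of it: after the last gap over 20 kb, a stretch of 120.9 kb held 20 sites with 44 peaks. The 170.4 kb before that gap, on the side of Dspp, held 9 sites with 11 peaks. The longest empty gap was 69.8 kb, between a Foxa2 site 303.4 kb and an osteoblast Runx2 site 233.5 kb upstream of Spp1.

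**Figure D2:**
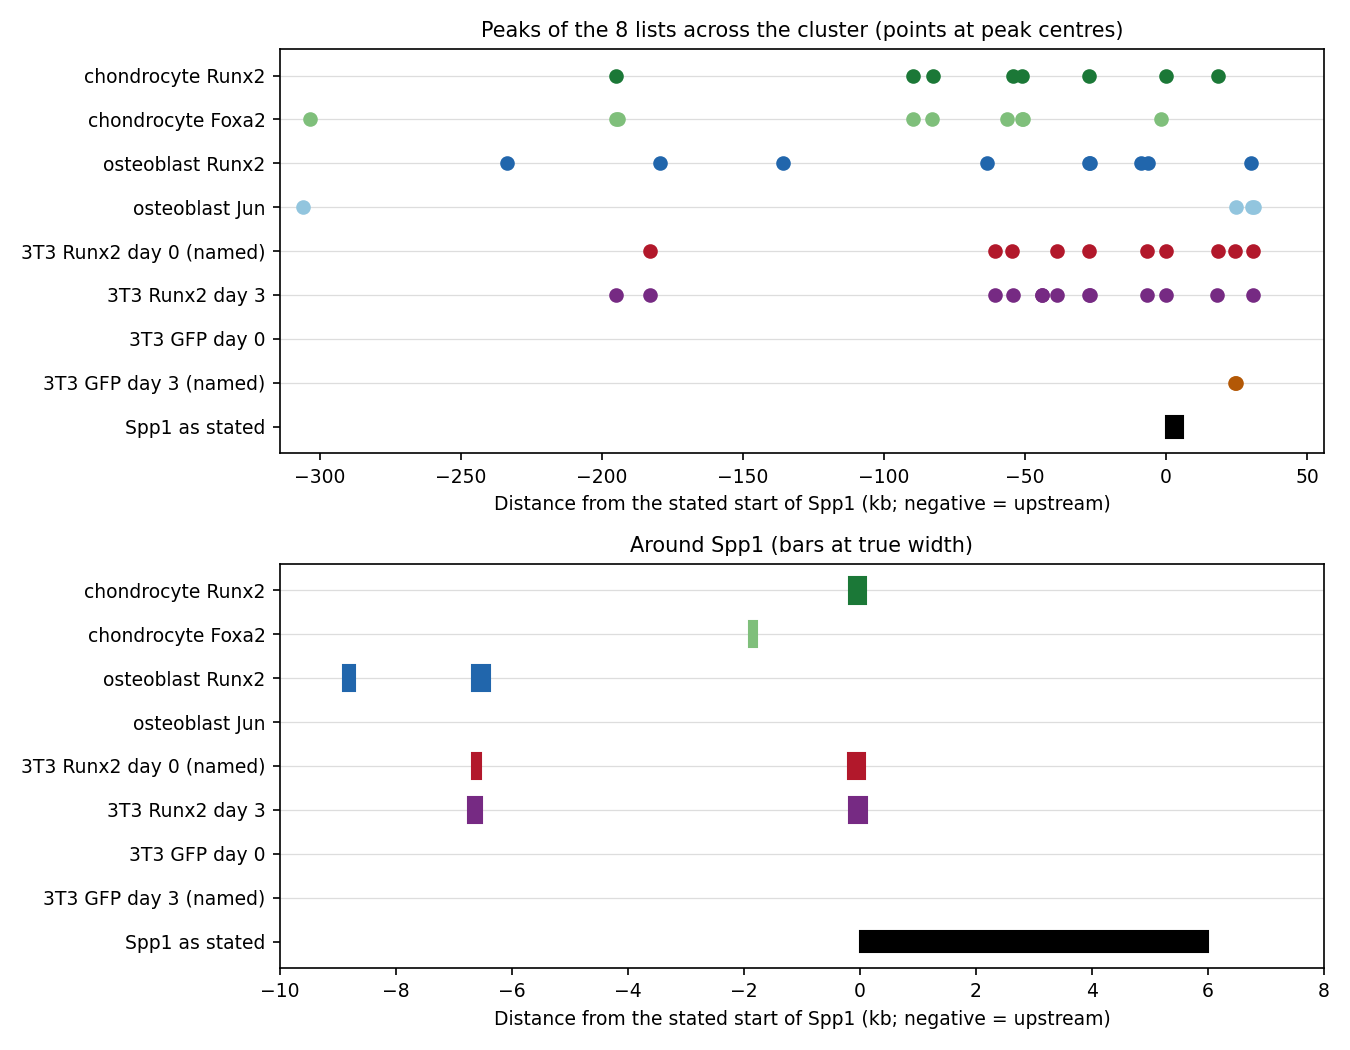
Peak centres of each list across the cluster (upper panel) and peaks at true width around Spp1 (lower panel), against the distance in kb from the stated start of Spp1. Chondrocyte Runx2 and both 3T3 Runx2 lists have a peak at the start of Spp1, whereas the osteoblast Runx2 peaks of the lower panel lie 6.54 and 8.81 kb upstream.

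At Spp1 itself, the Runx2 lists differed in which site they held. The site at its start (chr5:104863898-104864227, 330 bp) reached from 202 bp before to 127 bp after the stated start. It was held by chondrocyte Runx2 (peak of 286 bp), the list named for 3T3 Runx2 day 0 (295 bp) and 3T3 Runx2 day 3 (316 bp). The osteoblast Runx2 list had no peak at the start of Spp1. This contrast covers the start of Spp1 alone, and an osteoblast Runx2 site 135.94 kb upstream may lie at that of Ibsp, as given below. The osteoblast Runx2 peaks nearest to Spp1 were at chr5:104857408-104857711, centred 6.54 kb upstream, and at chr5:104855177-104855395, centred 8.81 kb upstream. The nearer one was shared with both 3T3 Runx2 lists and not with chondrocyte Runx2, and the farther one was in no other list.

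A Foxa2 peak of 132 bp lay between these sites, at chr5:104862190-104862321, 1.84 kb upstream of Spp1 and 1576 bp from the site at the start. It overlapped no other list. Together 4 sites with 8 peaks lay within 10 kb upstream, with no Jun or GFP peak among them. No peak was centred inside Spp1.

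Farther upstream, the site at chr5:104836640-104837283, 27.1 kb from Spp1, was the one held by the most lists. It gathered 6 peaks: 1 of chondrocyte Runx2 (475 bp), 2 of osteoblast Runx2 that overlapped each other (326 and 391 bp), 1 of the list named for Runx2 day 0 (178 bp) and 2 of Runx2 day 3 (191 and 111 bp). The peaks of 475 and 391 bp were the widest of chondrocyte and osteoblast Runx2 in the cluster. It was the only site of the 29 shared by chondrocyte and osteoblast Runx2. No Foxa2, Jun or GFP peak overlapped it.

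Chondrocyte and osteoblast Runx2 were otherwise listed at different sites of the cluster, with overlaps not resolved from those of the whole lists. Depth was not given, so an absent peak may be one not detected. Each held 8 sites, 15 in all, and 1 was common. As peaks, 1 of 8 chondrocyte Runx2 peaks overlapped osteoblast Runx2 (12.5%, exact Clopper-Pearson 95% interval 0.316 to 52.7%), against 29.9% of the whole list. In the other direction, 2 of 9 osteoblast peaks overlapped chondrocyte Runx2 (22.2%, 2.81 to 60.0%), against 45.2% of the whole list. Both intervals held the share of the whole list. The 7 osteoblast peaks outside the common site lay 6.2 to 46.0 kb from the nearest chondrocyte Runx2 peak. Such intervals measure counting error alone, and adjacent peaks need not be independent.

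Of the 8 chondrocyte Runx2 sites, 4 held Foxa2, and those without it were in both 3T3 Runx2 lists by name. Foxa2 overlapped 4 of the 8 peaks (50.0%, 15.7 to 84.3%), against 18.3% of the whole list, which lay inside the interval. In the flanking windows it overlapped 0 of 13, but Foxa2 had only 4 peaks there, so few overlaps were possible. The 4 shared sites were chr5:104668851-104669288, 195.0 kb upstream of Spp1, and chr5:104774336-104774508, chr5:104781189-104781379 and chr5:104812813-104813178, which lay 89.7, 82.8 and 51.1 kb upstream. Peak centres of the pair lay 23.5 to 133.5 bp apart. The first of these sites was also in 3T3 Runx2 day 3, while the other 3 were in no further list.

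The remaining 4 chondrocyte Runx2 sites had no Foxa2 and were all in both 3T3 Runx2 lists: those at the start of Spp1 and 27.1 kb upstream, one 54.4 kb upstream (chr5:104809430-104809949) and one 18.3 kb downstream of the Spp1 start (chr5:104882242-104882556). Of the 8 chondrocyte peaks, 5 overlapped Runx2 day 3 (62.5%, 24.5 to 91.5%), against 52.7% of the whole list. With the crossed lists exchanged, none of these 4 sites held a list of Runx2 day 0. The list then taken as Runx2 day 0 overlapped 13.6% of the whole chondrocyte Runx2 list. No chondrocyte Runx2 peak stood alone (0 of 8, 0 to 36.9%), against 21.3% of the whole list, and the interval held that share. Where at least 50% of the shorter peak had to overlap, 1 of 8 did. In the last 50% of the file, 1 of 5 cluster peaks overlapped Foxa2, against 15.8% of all there, and 0 of 5 stood alone, against 32.4%, so 3 of the 4 peaks with Foxa2 came from the first 50%.

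Foxa2 itself had 9 peaks of 118 to 305 bp, on 9 sites. Chondrocyte Runx2 overlapped 4 of them (44.4%, 13.7 to 78.8%), against 19.2% of the whole list, and the other 5 were in no other list (55.6%, against 72.8%). Of these 5, one lay 400 bp past the site 195.0 kb upstream and one 233 bp past the site 51.1 kb upstream, so that Foxa2 was listed side by side at both places. The other 3 were at chr5:104560635-104560756, chr5:104807753-104807880 and the site 1.84 kb upstream of Spp1. Foxa2 and osteoblast Runx2 shared no site (0 of 9 peaks of each, 0 to 33.6%). Such overlaps were rare over the whole lists as well, at 3.48% of Foxa2 peaks and 4.93% of osteoblast Runx2 peaks.

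**Figure D3:**
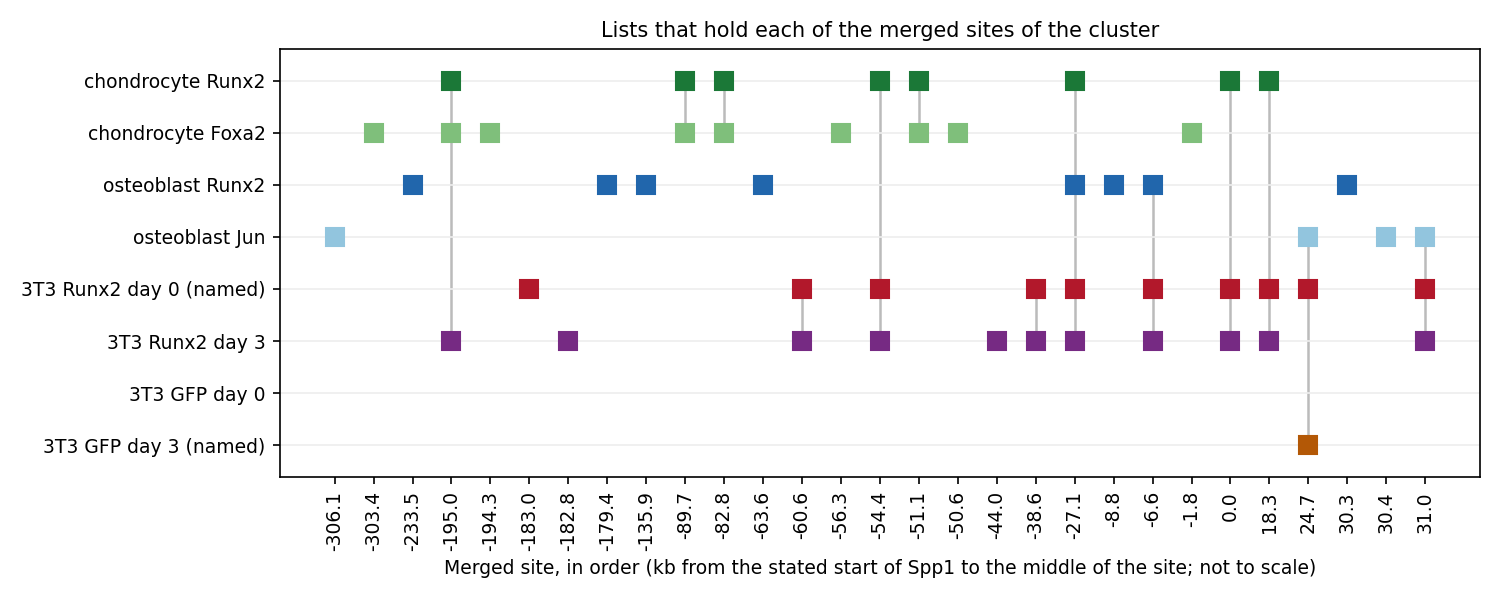
The 29 merged sites in order (horizontal axis, labelled by kb from the stated start of Spp1, not to scale) and the lists that hold each (squares, joined by a line where lists share a site). Of 8 chondrocyte Runx2 sites, 4 carry Foxa2 and 4 carry both 3T3 Runx2 lists without Foxa2, while 6 of 8 osteoblast Runx2 sites stand alone.

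Most osteoblast Runx2 peaks of the cluster overlapped no other list. Of its 9 peaks, 6 overlapped no other list (66.7%, 29.9 to 92.5%), against 21.7% of the whole list, and the interval did not hold that share. With centres within 250 bp as the criterion, 5 of 9 stood alone (55.6%, 21.2 to 86.3%), against 20.8% of the whole list, just below the interval. Runx2 day 3 of 3T3 cells overlapped the other 3 (33.3%, 7.49 to 70.1%), against 58.5% of the whole list. The 6 sites were chr5:104630558-104630622, chr5:104684607-104684845, chr5:104728023-104728300, chr5:104800306-104800603, the site 8.81 kb upstream of Spp1, and chr5:104894359-104894412, 30.3 kb downstream of its start. Upstream sites other than that at 8.81 kb lay 63.65 to 233.51 kb from Spp1. Their distances from the starts of the other genes of the cluster were not determined in mm9, so they need not be distal sites. In GRCm38.p6 the 250 bases before the starts of Ibsp and Spp1 were chr5:104299037-104299286 and chr5:104434861-104435110. If mm9 has the same spacing, the site chr5:104728023-104728300, 135.94 kb upstream of Spp1, lies at the start of Ibsp. That spacing was not checked in mm9, and the stated start of Spp1 is approximate. Widths of the 6 sites ran from 54 to 298 bp. The cluster peaks stood late in their file, at a median of 83.8% of its lines, with 1 of 9 in the first 50%. Peaks late in the file stood alone more often in the whole list: in its last 50%, 5 of 8 cluster peaks were in no other list (24.5 to 91.5%), against 31.9% of all. This interval holds 31.9%, and so does that of the 6 of 9 above, so the excess over the list was not resolved against peaks of the same part of the file. The part of file position in the result was not tested, and no source used here says how the files were ordered.

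Jun did not share any site with osteoblast Runx2, although both came from calvarial osteoblasts. It overlapped 0 of 9 Runx2 peaks (0 to 33.6%), against 25.3% of the whole list and 17.3% of its last 50%. That interval holds both shares. The Jun peaks lay at the ends of the cluster. One was 306.1 kb upstream of Spp1 (chr5:104557906-104558003, 98 bp) and 3 were downstream of it, 24.9 to 31.0 kb from its start. The middle of these (chr5:104894419-104894484, 66 bp) lay closest to Runx2, 6 bp from the osteoblast Runx2 peak of 54 bp at chr5:104894359-104894412. Every other osteoblast Runx2 peak was at least 31.1 kb from a Jun peak.

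Downstream of Spp1, on the side of Pkd2, 5 sites held 12 peaks, of which 3 were Jun peaks and 7 came from 3T3 lists. The site chr5:104888418-104889228 (811 bp) was the widest of the cluster and the only one with GFP peaks. It held the 2 overlapping peaks named for GFP day 3 (377 and 230 bp), a Jun peak (392 bp) and a peak of 22 bp named for Runx2 day 0 that lay within one of the GFP peaks. The last site, chr5:104894905-104895234, held Jun (255 bp) and both 3T3 Runx2 lists. Its Runx2 peaks came earliest in file order among the cluster peaks of their lists, at 4.62% of the lines for day 3 and 13.5% for the list named for day 0.

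In 3T3 cells, Runx2 peaks of the cluster were shared between days, by the names of the lists, at shares near those of the whole lists. Of the 10 peaks named for day 0, 8 overlapped day 3 (80.0%, 44.4 to 97.5%), against 81.8% of the whole list. Of the 13 peaks of day 3, 8 overlapped day 0 (61.5%, 31.6 to 86.1%), against 51.4%. Both intervals held the share of the whole list. A day 0 peak 183.0 kb and a day 3 peak 182.8 kb upstream were 13 bp apart and did not count as shared. After the exchange of the crossed lists, none of the 13 day 3 peaks overlapped day 0 (0 to 24.7%), against 15.9% of the whole list, which the interval held.

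Sites listed at day 3 and not at day 0 were the one with 2 overlapping peaks 44.0 kb upstream (chr5:104819767-104820366, 600 bp), the one 182.8 kb upstream and the Foxa2 site 195.0 kb upstream. None of the 13 day 3 peaks overlapped the list named for GFP day 3 (0 to 24.7%), against 15.9% of the whole list. After the exchange, 8 of 13 did (61.5%, 31.6 to 86.1%), against 51.4% of the whole list, which the interval held. Of the 13, 6 overlapped chondrocyte Runx2 (46.2%, 19.2 to 74.9%; 18.4% of the whole list) and 3 osteoblast Runx2 (23.1%, 5.04 to 53.8%; 14.1%). The first interval did not hold the share of the whole list and the second did. The first held it where 50% of the shorter peak had to overlap (5 of 13, 38.5%, 13.9 to 68.4%; 15.8%) or with centres within 250 bp (6 of 13; 19.9%). The sites held by both 3T3 Runx2 lists and no other lay 60.6 and 38.6 kb upstream of Spp1.

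**Figure D4:**
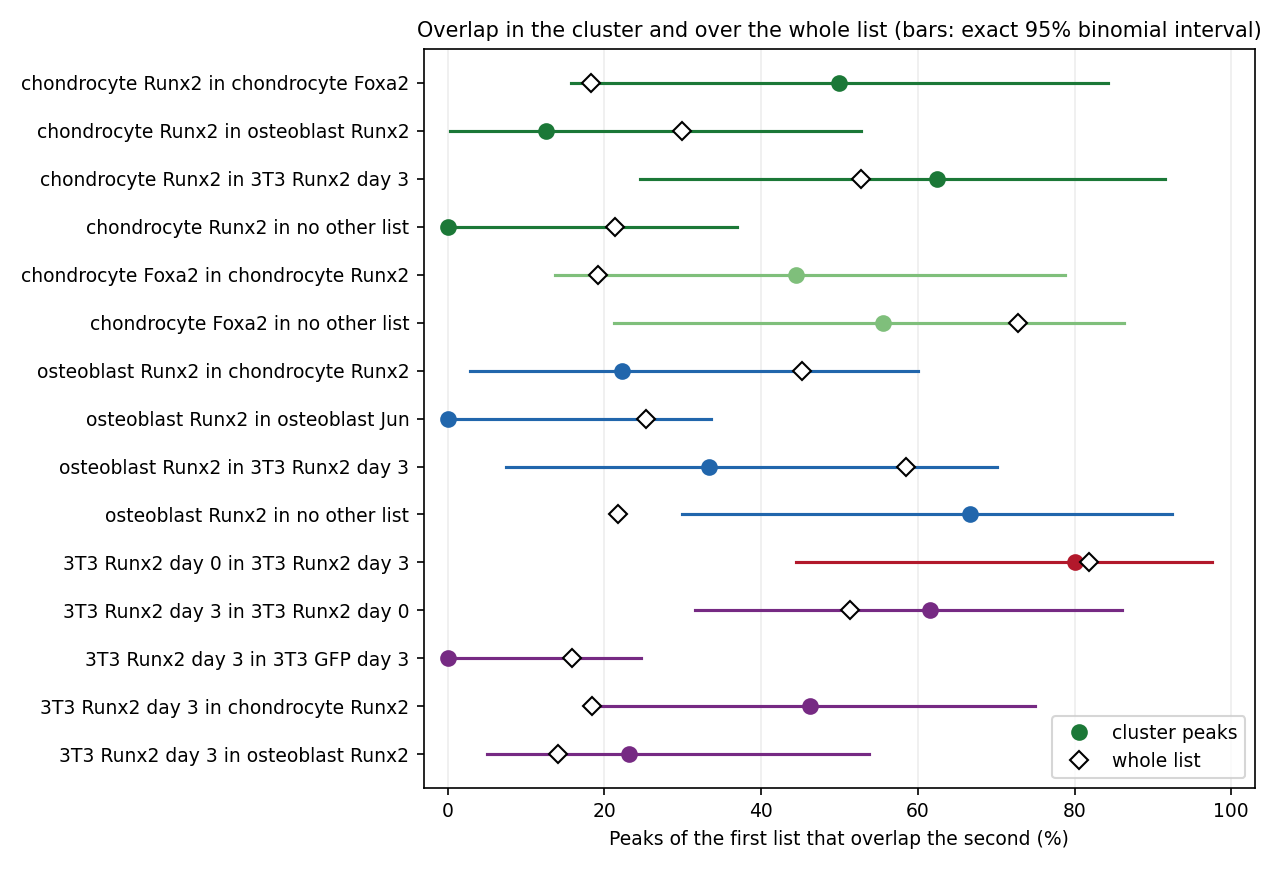
Percent of the peaks of the first list that overlap the second (horizontal axis), for cluster peaks (filled points, with exact 95% binomial intervals as bars) and for the whole list (open diamonds). Of the 15 comparisons drawn, the interval excludes the share of the whole list in 2: osteoblast Runx2 peaks in no other list (66.7% against 21.7%, but 31.9% in the last 50% of the file) and 3T3 Runx2 day 3 peaks in chondrocyte Runx2 (46.2% against 18.4%).

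Peak widths in the cluster were near those of the lists for most factors. The median was 133.5 bp for chondrocyte Runx2 (136 bp over the list), 128 bp for Foxa2 (120 bp), 181.5 bp for the list named for 3T3 Runx2 day 0 (190 bp) and 237 bp for day 3 (213 bp). Osteoblast Runx2 peaks were wider here, at 278 bp against 186 bp, and ran from 54 to 391 bp. Jun had 176.5 bp against 134 bp over 4 peaks. The widest Foxa2 peak (305 bp) was at the shared site 51.1 kb upstream of Spp1, the widest named for Runx2 day 0 (421 bp) at the site 54.4 kb upstream, the widest of Runx2 day 3 (456 bp) at the site 44.0 kb upstream, and the widest Jun peak (392 bp) beside the GFP peaks.

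No peak crossed an edge of the interval. The last peak before the interval was one of 3T3 Runx2 day 3, 7.0 kb outside, and the first inside was the Jun peak 8.0 kb from the edge. The gap between these peaks was 14710 bp. It is shorter than the 20 kb used above to part sites, so a group of peaks may continue across this edge. At the other end, the last peak inside was 24.9 kb from the edge. The first group outside, 17.2 to 17.7 kb past it, held peaks of Jun, chondrocyte Runx2, 3T3 Runx2 of both names and the one named for GFP day 3.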

How the data were processed

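The authors deposited 1 peak list per ChIP group, with chromosome, start and end in 3 columns and no score, as the files show. Per the submitters' processing notes, coordinates are mm9, and the tools included Bowtie and DiffBind, with no role named. Depth, pooling of libraries, controls, the peak caller and its settings are not given in the sources used here. Positions are printed 1-based.

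A peak belonged to the cluster where its centre lay in the interval. Peaks shared a site where they overlapped by at least 1 bp. Shares have exact Clopper-Pearson 95% intervals, and the background is the whole list or all 370-kb windows up to the last peak of each chromosome. Named sites were those with the most lists, those within 10 kb upstream of Spp1 or inside it, the widest, and those with Foxa2. Others were chosen after their values were seen. The members, lists and comparisons were chosen with earlier results of these data known. No mm9 genome or gene annotation was used here, so planned motif searches in peaks and assignment to the other genes were not run. Gene order came from RefSeq (GRCm38.p6).

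Alternatives were any overlap with the interval, the wider 50% or first 50% of each list, the crossed lists exchanged, peaks that overlap a GFP list left out, overlap of 50% of the shorter peak, centres within 250 bp, merging across 250 bp and a zone of 20 kb. Merging overlapping peaks of a list, and every alternative for the shares in no other list and of 3T3 Runx2 day 3 in primary Runx2, was chosen after seeing the data. Overlap counts were tested on simulated data and checked against bedtools 2.31.1, with 0 of 56 ordered pairs differing. Tools were pandas 2.3.3, SciPy 1.17.1, NumPy 2.4.6 and matplotlib 3.10.9 under Python 3.11.15.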

Additional observations from a re-analysis of the deposited data

How the results depend on the processing

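Of 121 values recomputed under an alternative, 18 moved, and the rest kept within 1.5 times the reported count or within the interval of the reported share. This tally does not measure robustness. The exchange cannot change values that use neither crossed list, and the wide intervals of the shares leave room for large changes. Under any overlap with the interval, overlap of 50% of the shorter peak, centres within 250 bp, merging across 250 bp, a zone of 20 kb and removal of GFP lists or of peaks overlapping them, none of the counts and shares recomputed moved past these bounds. A smaller move still bears on a comparison: with centres within 250 bp, 55.6% of osteoblast Runx2 peaks were in no other list (5 of 9, 21.2 to 86.3%). With that criterion or overlap of 50% of the shorter peak, the interval of 3T3 Runx2 day 3 in chondrocyte Runx2 held the share of the whole list. Shortened lists hold fewer peaks by construction, but why osteoblast Runx2 kept 1 of 9 in the first 50% was not tested. In the wider 50% of each list the cluster had 4 chondrocyte Runx2 peaks, 2 Jun, 4 named for Runx2 day 0, 7 of Runx2 day 3 and 1 named for GFP day 3. In the first 50% in file order it had 3 chondrocyte Runx2, 5 Foxa2, 1 osteoblast Runx2, 1 Jun, 3 named for Runx2 day 0, 6 of Runx2 day 3 and 0 named for GFP day 3. With the crossed lists exchanged, Runx2 day 0 had 2 peaks and GFP day 3 had 10. Then 0 of 2 day 0 Runx2 peaks were in day 3 (0 to 84.2%), against 41.9% of the whole list. Of day 3 Runx2 peaks, 0% were in day 0, against 15.9% of the whole list, and 61.5% were in GFP day 3, against 51.4%. Each of these intervals held the share of the whole list. Merging the overlapping peaks of each list left 1 peak named for GFP day 3. No paired analysis was possible because the lists used here are 1 per group, with no value per replicate; for the same reason no replicate was left out. Depth was not given, so an absent peak may be one not detectable at the depth of its library.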
